A study of Mus musculus with 6 samples.

Results

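The cytochrome P450 genes were described here in whole kidneys of Vhl knockout and wild-type mice. Their members were the rows of the deposited value table whose gene symbol was Cyp, a number, letters and a number. This rule found 92 of the 25206 gene rows, from 15 families and 38 subfamilies. The study profiled total RNA from whole kidneys on Affymetrix arrays, 3 arrays of Vhl knockout mice and 3 of wild-type mice. All mice were C57BL/6 males, and kidneys were taken at an age of 3 months without further treatment. The Vhl knockout mice carried a floxed Vhl allele and the Hoxb7-Cre-GFP transgene. The wild-type label gave a floxed Vhl allele alone and named no Cre, while the study's methods describe the wild-type mice used for its tubule cell cultures as carrying the transgene. Whether the wild-type mice of the arrays carried it is not settled, and if they did not, loss of Vhl and presence of the transgene cannot be told apart. The Hoxb7 promoter drives Cre in tubule cells of the collecting duct lineage, so each knockout extract also held many cells that had kept Vhl. Nothing in the sources says that each array came from a separate mouse, and the p-values then measure only the spread between these arrays. In a whole-organ extract, fewer cells of a type and less RNA per cell cannot be told apart.

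P450 enzymes are haem proteins that insert an oxygen atom into fats, steroids, vitamins and drugs, with electrons passed on by partner proteins such as P450 reductase and adrenodoxin. In the kidney most of them are made by the proximal tubule, where CYP4A enzymes hydroxylate arachidonic acid to a vessel-constricting product, CYP2C and CYP2J enzymes form epoxides that widen vessels, and mitochondrial members make and break down the active form of vitamin D. The protein encoded by Vhl marks the hypoxia-inducible factors for destruction, so its loss raises the genes that they drive.

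The arrays were close to each other, with median log2 signals of 5.042 to 5.055 on the knockout arrays and 5.019 to 5.036 on the wild-type arrays. Knockout replicate 1 stood a little apart, with an array weight of 0.643 against 0.987 to 1.22 for the other 5 arrays. The row of the targeted gene itself did not separate the genotypes: Vhl had a log2 signal of 6.08, 6.18 and 6.10 on the knockout arrays and 6.11, 6.13 and 6.03 on the wild-type arrays. Which Vhl exons its probes read is not known here, so this row does not check the labels. Markers of the proximal tubule, the main P450 cell, had mean log2 signals of 10.78, 10.92 and 10.95 on the knockout arrays and 10.96, 11.01 and 10.95 on the wild-type arrays, with 0 of 14 markers past the limma threshold and 1 at an unadjusted p under 0.05. Among the collecting duct markers 3 of 7 fell (Aqp4, Aqp3 and Hsd11b2), and among the macrophage markers 7 of 8 rose. Over all rows 0.524% fell and 2.24% rose. Adipocyte markers were high on knockout replicates 1 and 3, with means of 6.76, 4.15 and 5.87 on the knockout arrays and 4.70, 4.45 and 3.96 on the wild-type arrays, and 0 of 6 passed the threshold (2 were higher at an unadjusted p under 0.05).

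Of the 92 P450 genes, 2 passed an adjusted p of 0.05 in limma, where 2.77% of all rows passed. Cyp4a14, a fatty acid hydroxylase, was the 1 member that rose (2.24% of all rows rose), and Cyp2b10, a drug-metabolising enzyme, was the 1 that fell (0.524% of all rows fell). At an unadjusted p under 0.05, 6 members were higher and 11 lower, which are 6.52% and 12% of the members, beside 8.67% and 8.38% of all rows. On 6 members every knockout array lay above every wild-type array (6.52%, against 11.2% of all rows), and on 11 every knockout array lay below (12%, against 12.7% of all rows). The median log2 fold change, knockout over wild-type, was -0.039 over the members and -0.028 over all rows, and 60.9% of members and 57.3% of all rows were negative. Many members were dim: 31 of the 92 had a signal under the lower quartile on each of the 6 arrays, which was 33.7% of members against 21.1% of all rows. The plot of all members by role shows 2 genes that stand away from a group of small differences.

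**Figure D1:**
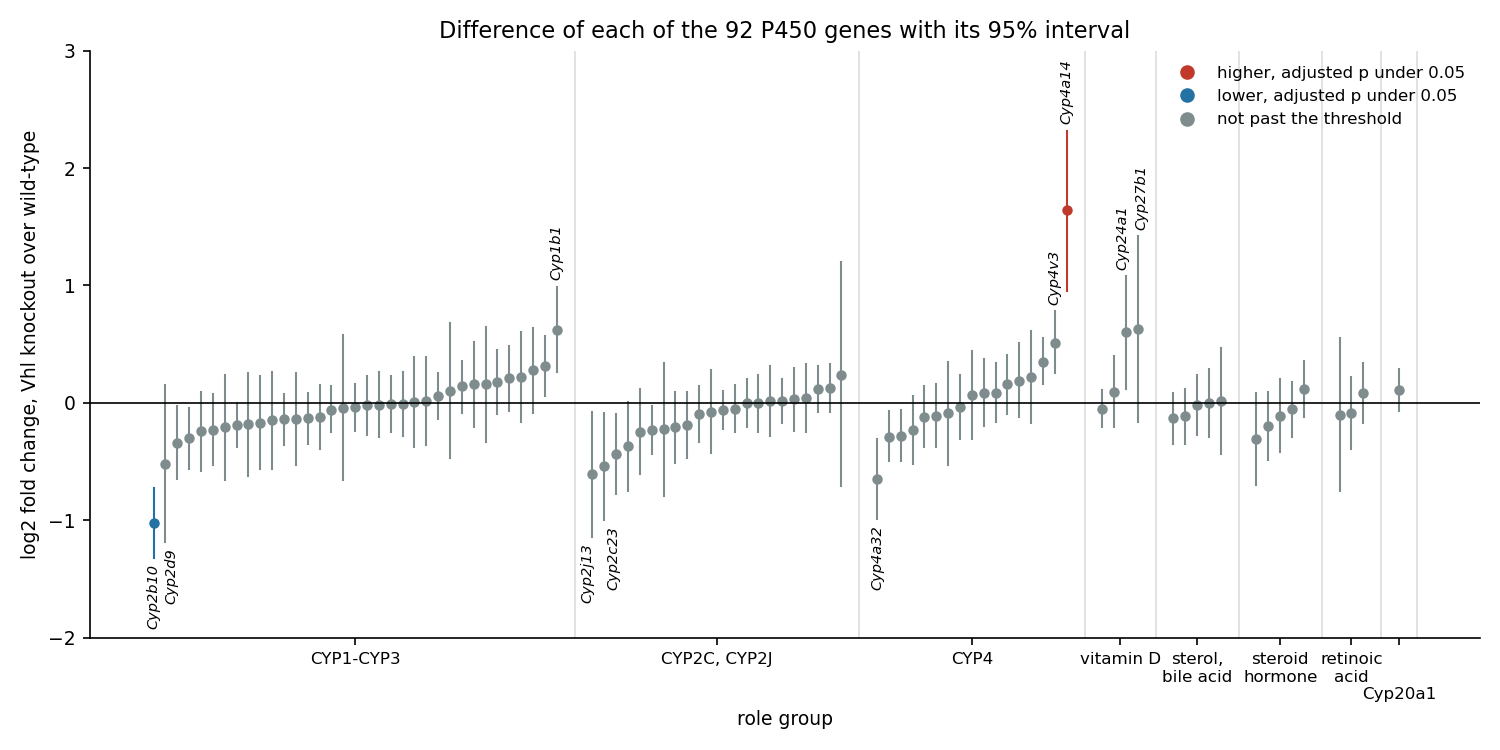
Log2 fold change, Vhl knockout over wild-type (vertical axis), of each of the 92 P450 genes, ordered within its role group (horizontal axis). Points are limma estimates from 3 arrays per genotype and lines their 95% intervals. Cyp4a14 (1.64) and Cyp2b10 (-1.02) passed the adjusted threshold, and names mark members whose difference exceeded 0.5 in size.

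Family 4 holds the enzymes that hydroxylate the end carbon of fatty acids, and here it held the largest difference of any member. Cyp4a14 rose, and the other 16 members of the family did not pass the threshold. Cyp4a14 is a known target of the fatty acid receptor PPAR-alpha in mouse liver and kidney. Its log2 signal was 9.03, 8.15 and 7.77 on the knockout arrays and 6.63, 6.87 and 6.55 on the wild-type arrays. The groups did not overlap, with a gap of 0.90 between them. The difference was 1.64 (SE 0.293, limma adjusted p = 0.0344), a 3.11-fold rise with a 95% interval of 1.93 to 5. Its call did not hold in most fits that left out 1 array. The limma adjusted p was 0.121, 0.0882 and 0.112 without wild-type replicates 1, 2 and 3, and 0.0775 without knockout replicate 2. It passed only without knockout replicate 1 (0.0232) or 3 (0.0287). The difference ran from 1.28 to 1.91 over these 6 fits. Fewer of all rows passed in them as well, 0.972% to 1.62% against 2.77% with all arrays. The mean of the 6 adipocyte markers was 6.76, 4.15 and 5.87 on the same knockout arrays, against 4.70, 4.45 and 3.96 on the wild-type arrays. A limma fit with these markers as a covariate, chosen after seeing the data, gave a Cyp4a14 difference of 1.32 (adjusted p = 0.195). Their part in the Cyp4a14 difference was not tested further. An exact permutation test over the 3 against 3 arrays (two-sided) cannot go below p = 0.1. Any row whose groups do not overlap gives this value, so the test adds nothing to the gap stated above.

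The remaining CYP4A genes, which are close copies of each other on the same chromosome, did not follow Cyp4a14 in size. Cyp4a10, its most studied relative and likewise a PPAR-alpha target, had 10.08, 10.23 and 10.12 on the knockout arrays and 9.72, 9.76 and 9.89 on the wild-type arrays. These groups were apart, but the difference of 0.35 (SE 0.0823) had an adjusted p of 0.0769 in limma. Cyp4a32 was dim, with 2.69, 3.04 and 2.53 on the knockout arrays and 3.43, 3.23 and 3.54 on the wild-type arrays (difference -0.65, SE 0.145, adjusted p = 0.0699). It went the other way from Cyp4a14 with no overlap between genotypes, and its adjusted p was 0.0381 without knockout replicate 2. Cyp4a31 and Cyp4a29 differed by 0.087 and -0.038. Because array probes for such copies can read each other's transcripts, the split of signal between CYP4A genes is uncertain.

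The widest difference among all P450-named rows lay outside the symbol rule, because its symbol ends in a further letter. Cyp4a12a, the androgen-dependent CYP4A enzyme of male mouse kidney, had 3.27, 7.40 and 6.37 on the knockout arrays and 7.62, 8.37 and 8.37 on the wild-type arrays. Each knockout array was below each wild-type array, by 0.22 at the closest, and knockout replicate 1 was far under all others. The difference of -2.44 had a 95% interval of -4.65 to -0.24 and an adjusted p of 0.248, and it was -1.24 without knockout replicate 1. Its neighbour copy Cyp4a12b had 5.18, 6.17 and 5.55 on the knockout arrays and 6.01, 5.60 and 5.96 on the wild-type arrays, with overlap and a difference of -0.23.

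In the rest of family 4, Cyp4v3, the mouse counterpart of the fatty acid hydroxylase gene mutated in human Bietti crystalline dystrophy, had 6.12, 5.80 and 5.84 on the knockout arrays and 5.42, 5.28 and 5.52 on the wild-type arrays. The groups were apart and differed by 0.51 (SE 0.113, limma adjusted p = 0.0649). Cyp4b1, a fatty acid and foreign compound hydroxylase that is abundant in kidney, had 11.35, 11.63 and 11.56 on the knockout arrays and 11.73, 11.80 and 11.85 on the wild-type arrays. That is a gap with no overlap but a small difference of -0.28 (SE 0.0948, adjusted p = 0.195). Cyp4f18, a leukotriene hydroxylase of white blood cells, differed by -0.23 with overlap, and the 9 CYP4F genes ranged from -0.29 to 0.22. When rows that were dim on most arrays were left out, 4 of the 33 members kept passed as higher (Cyp1b1, Cyp4a10, Cyp4a14 and Cyp4v3). Of all 12778 rows kept, 839 then rose. The same 4 of 92 members passed with a trended, robust variance, where 826 of 25206 rows rose, against 565 in the main fit. Cyp4a10 and Cyp4v3 thus lay close to the threshold (limma adjusted p = 0.0278 and 0.0276 with the filter, and 0.0159 and 0.0395 with the trend).

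**Figure D2:**
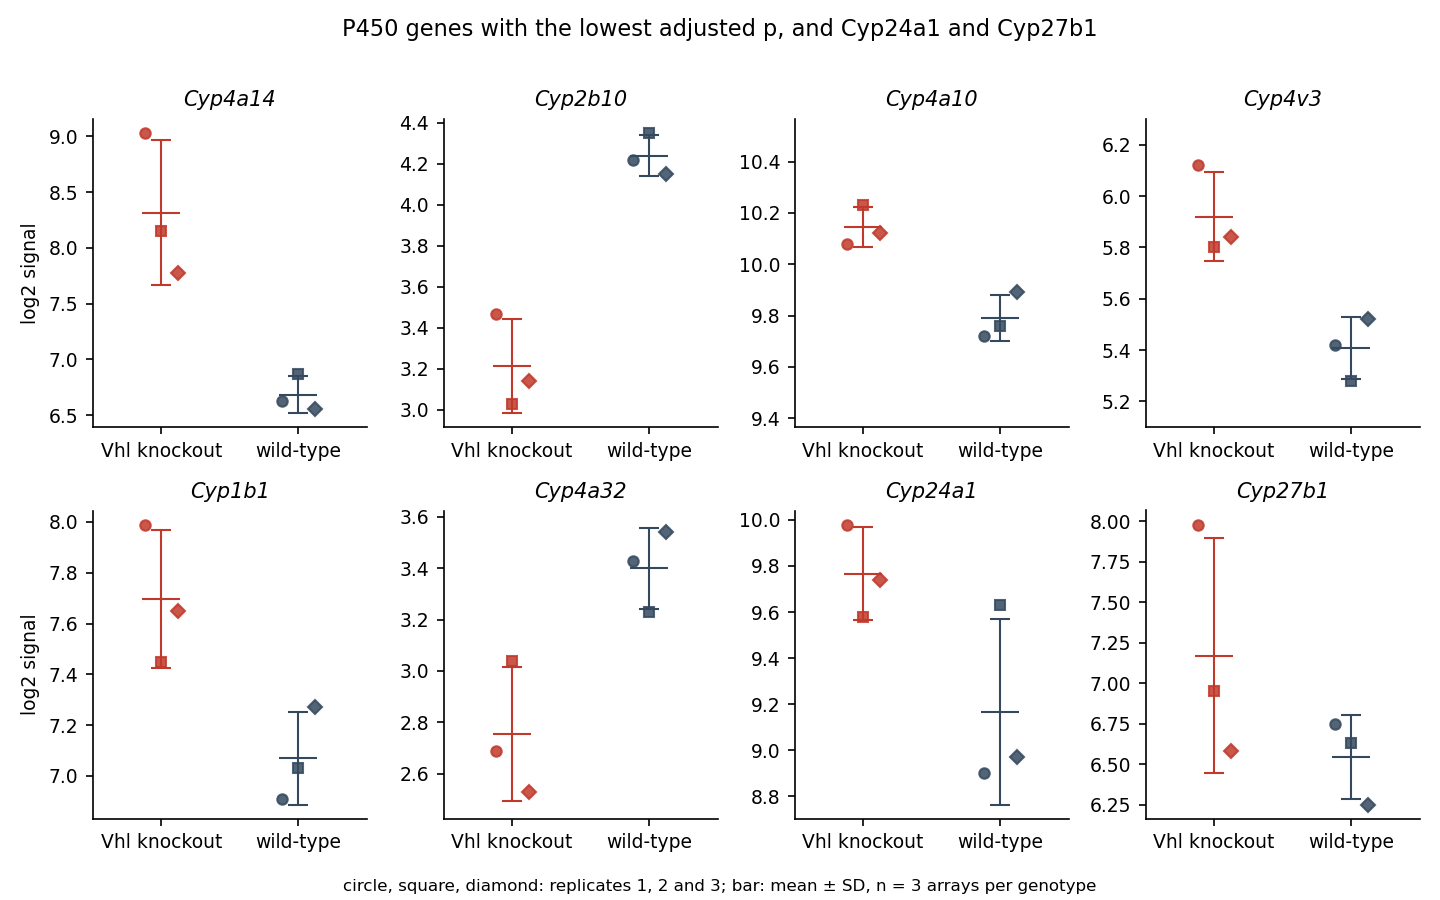
Log2 signal (vertical axis) of 8 P450 genes on each Vhl knockout array (red, left) and wild-type array (dark, right). Symbols mark replicates 1, 2 and 3 and bars the mean ± SD of 3 arrays. Cyp4a14 and Cyp2b10 are separated widely, whereas Cyp24a1 and Cyp27b1 overlap through wild-type replicate 2 and knockout replicate 3.

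The CYP2C and CYP2J genes, whose enzymes form epoxides of arachidonic acid, gave no call. Of these 22 members 0 passed the threshold in limma, and the median difference was -0.068. At an unadjusted p under 0.05, 4 were lower and 0 higher (18.2% and 0% of them, beside 8.38% and 8.67% of all rows). All 7 CYP2J genes had a negative difference, from -0.61 to -0.049 with a median of -0.22, and this also held after quantile normalization and in each fit that left out a single array. The median was -0.11 without knockout replicate 1, and 6 of 7 were negative when knockout replicates 1 and 3 were both left out. The 15 CYP2C genes had a median of -0.0015 with 8 negative (53.3%, against 57.3% of all rows), and 11 of them were under the lower quartile on each array.

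Cyp2j13, a member known from mouse kidney, had 9.57, 10.50 and 10.37 on the knockout arrays and 10.71, 10.74 and 10.83 on the wild-type arrays. All knockout arrays were below the wild-type arrays, and knockout replicate 1 was the lowest by far (difference -0.61, SE 0.226, adjusted p = 0.231). Without that array the difference was -0.32. Cyp2j5, the abundant CYP2J epoxygenase of mouse kidney, had 11.73, 11.70 and 11.73 on the knockout arrays and 11.84, 11.74 and 11.76 on the wild-type arrays. The groups were apart by a hair, and the difference was -0.06 (95% interval -0.22 to 0.10). Cyp2c23, also called Cyp2c44, an arachidonic acid epoxygenase of mouse kidney whose rat counterpart is the main such enzyme there, had 7.37, 6.78 and 7.07 on the knockout arrays and 7.90, 7.28 and 7.66 on the wild-type arrays. The groups overlapped at wild-type replicate 2, with a difference of -0.54 (SE 0.194, adjusted p = 0.22). Cyp2c69, a dim liver-type member, differed by -0.44 with no overlap between genotypes.

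Downstream of these enzymes, soluble epoxide hydrolase (Ephx2) opens the epoxides, and the cyclooxygenase and lipoxygenase routes use the same arachidonic acid. Of 14 such genes measured, 3 rose (21.4%, against 2.24% of all rows) and 0 fell (0.524% of all rows fell). The median difference was 0.37 against -0.028 over all rows. Alox5ap, the partner protein that presents arachidonic acid to 5-lipoxygenase, had 6.53, 6.29 and 6.52 on the knockout arrays and 5.40, 5.85 and 5.27 on the wild-type arrays. It rose by 0.94 (SE 0.157, limma adjusted p = 0.0266), with no overlap. Ptgds, a prostaglandin D synthase, rose by 0.73 (adjusted p = 0.018), and Ltc4s, the leukotriene C synthase, by 0.65 (adjusted p = 0.0281). Ephx2 itself had 9.73, 10.26 and 10.18 on the knockout arrays and 10.43, 10.45 and 10.42 on the wild-type arrays. All knockout arrays were lower, but the difference of -0.37 did not pass (adjusted p = 0.236). Macrophage markers, of which 7 of 8 rose, had means of 6.94 to 7.03 on the knockout arrays and 5.68 to 5.85 on the wild-type arrays, and their part in the rise of Alox5ap, Ptgds and Ltc4s was not tested.

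**Figure D3:**
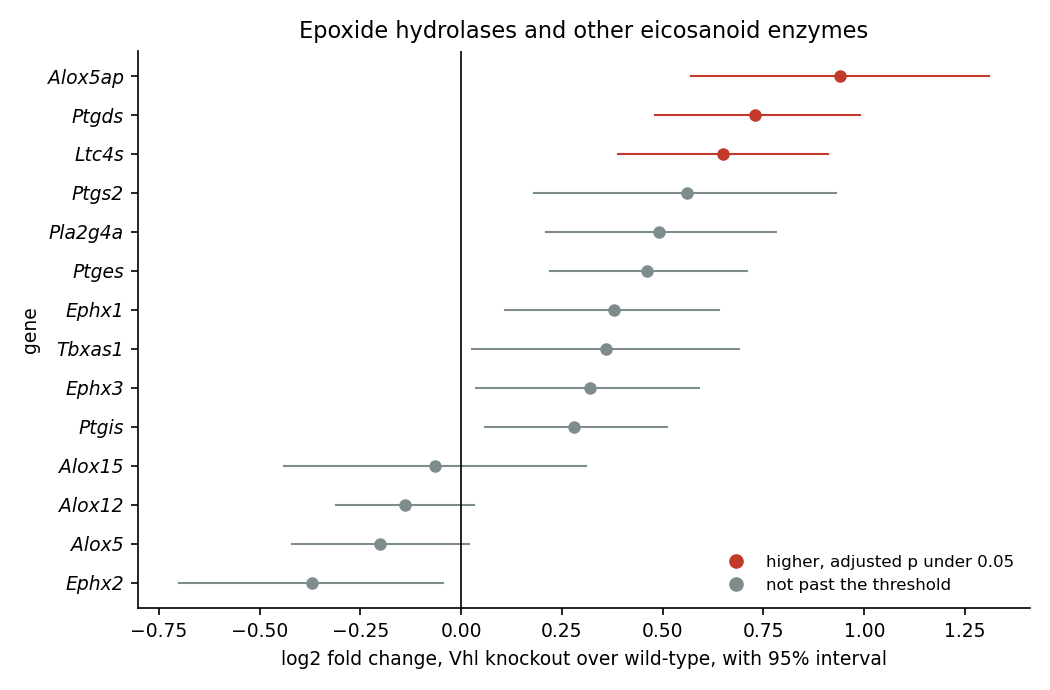
Log2 fold change, Vhl knockout over wild-type (horizontal axis), of 14 epoxide hydrolase and eicosanoid enzyme genes (vertical axis). Points are limma estimates from 3 arrays per genotype and lines their 95% intervals. Alox5ap (0.94), Ptgds (0.73) and Ltc4s (0.65) passed the adjusted threshold, and Ephx2 (-0.37) had the lowest estimate.

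Families 1 to 3 hold the enzymes best known for oxidising drugs and foreign compounds, apart from CYP2C and CYP2J. Of these 35 genes 1 fell (2.86%, against 0.524% of all rows) and 0 rose (2.24% of all rows rose). The median difference was -0.038, and 14 of them were under the lower quartile on each array. The 1 that fell was Cyp2b10, the classical phenobarbital-induced enzyme of mouse liver and a target of the receptor CAR. Its log2 signal was 3.47, 3.03 and 3.14 on the knockout arrays and 4.22, 4.35 and 4.15 on the wild-type arrays. The groups lay 0.68 apart, with a difference of -1.02 (SE 0.124, limma adjusted p = 0.00911), a ratio of 0.492 with a 95% interval of 0.402 to 0.602. It passed in each of the 6 fits without a single array, with differences of -1.15 to -0.93 and adjusted p-values of 0.00933 to 0.0453. Without knockout replicates 1 and 3 together the difference was -1.21. The exact permutation p was 0.1, again the value that any row without overlap gives. All knockout values lay under the lower quartile of their own array, where a signal may be mostly background, so the size of the fall is uncertain. Of 5 liver markers 0 passed (0 at an unadjusted p under 0.05), with means of 5.76, 6.05 and 6.15 on the knockout arrays and 6.11, 6.04 and 6.08 on the wild-type arrays. Alb, the liver albumin gene, differed by -0.44 (95% interval -1.03 to 0.15), and the part of liver RNA in the Cyp2b10 difference was not tested.

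The remaining 4 CYP2B genes were all under the lower quartile on each array, with differences between -0.17 and -0.011, and after quantile normalization 4 of the 5 CYP2B genes were negative rather than 5. Cyp1b1, an enzyme that oxidises oestradiol and polycyclic hydrocarbons and a target of the aryl hydrocarbon receptor, had 7.99, 7.45 and 7.65 on the knockout arrays and 6.91, 7.03 and 7.27 on the wild-type arrays. The groups did not overlap, and the difference was 0.62 (SE 0.156, adjusted p = 0.0944 in limma, 0.0481 with dim rows left out and 0.0475 with a trended, robust variance). Of 5 endothelial markers 1 rose (Tie1), which was 20%, against 2.24% of all rows. At an unadjusted limma p under 0.05, 4 of the 5 were higher (80%, against 8.67% of all rows). Their means were 8.67, 8.42 and 8.51 on the knockout arrays and 8.26, 8.21 and 8.25 on the wild-type arrays. The part of these markers in the Cyp1b1 difference was not tested. Cyp1a1, the best known target of that receptor, had 4.20, 4.33 and 4.30 on the knockout arrays and 4.33, 4.17 and 4.17 on the wild-type arrays. It showed overlap and a difference of 0.054 (95% interval -0.14 to 0.25). Cyp2e1, which oxidises ethanol, differed by -0.059 (95% interval -0.25 to 0.14). Cyp2d9, a testosterone hydroxylase of male mouse liver, had 5.86, 6.71 and 6.98 on the knockout arrays and 6.88, 6.88 and 7.36 on the wild-type arrays. The groups overlapped at knockout replicate 3, with a difference of -0.52 and an adjusted p of 0.406. The 9 CYP2D genes ranged from -0.52 to 0.28, and the 7 CYP3A genes, the family of the main human drug oxidase, from -0.24 to 0.31.

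The promoters of the members with an entry in the RefSeq table (build GRCm38.p6) were searched over the 250 bases before the start site. The search used the letters ACGTG and GCGTG, core of the hypoxia response element (GCGTG is also the core read by the aryl hydrocarbon receptor), and AGGTCA, a sequence read by nuclear receptors, on both strands. The 4 promoters below belong to the called gene Cyp2b10 and to the members with an entry among those next in adjusted p, Cyp4v3, Cyp4a32 and Cyp1b1, and capitals mark the matches.
Cyp2b10: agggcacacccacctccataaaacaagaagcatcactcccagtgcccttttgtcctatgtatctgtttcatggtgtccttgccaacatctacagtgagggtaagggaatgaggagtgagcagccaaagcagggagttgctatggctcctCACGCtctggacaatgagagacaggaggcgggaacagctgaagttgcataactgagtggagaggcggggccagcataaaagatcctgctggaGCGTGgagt
Cyp4v3: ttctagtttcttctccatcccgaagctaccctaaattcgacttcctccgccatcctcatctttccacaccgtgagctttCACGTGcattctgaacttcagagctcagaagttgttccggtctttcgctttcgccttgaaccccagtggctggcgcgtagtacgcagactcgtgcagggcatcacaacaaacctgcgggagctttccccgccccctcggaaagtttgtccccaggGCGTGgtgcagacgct
Cyp4a32: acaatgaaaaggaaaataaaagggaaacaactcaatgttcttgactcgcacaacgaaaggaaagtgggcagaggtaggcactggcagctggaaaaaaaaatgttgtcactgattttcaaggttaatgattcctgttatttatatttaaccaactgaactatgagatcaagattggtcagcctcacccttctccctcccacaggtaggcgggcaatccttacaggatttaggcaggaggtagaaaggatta
Cyp1b1: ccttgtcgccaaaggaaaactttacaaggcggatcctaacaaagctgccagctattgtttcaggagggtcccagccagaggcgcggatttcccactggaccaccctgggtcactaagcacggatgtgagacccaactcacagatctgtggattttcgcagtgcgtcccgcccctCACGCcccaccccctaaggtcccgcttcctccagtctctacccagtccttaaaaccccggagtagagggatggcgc
The Cyp2b10 stretch lies at chr7:25897408-25897657 on the plus strand, the Cyp4v3 stretch at chr8:45333164-45333413 on the minus strand, the Cyp4a32 stretch at chr4:115600688-115600937 on the plus strand, and the Cyp1b1 stretch at chr17:79715062-79715311 on the minus strand. Cyp2b10 held GCGTG at position -9 on its own strand and at -101 on the opposite strand. Cyp4v3 held ACGTG on both strands of the palindrome CACGTG at -171, where the 2 matches overlap, and GCGTG at -16. Cyp1b1 held a single GCGTG on the opposite strand at -76. Cyp4a32 held none of the 3 motifs, and neither did Cyp27b1. Of the 71 member genes with an entry, 5 held ACGTG, 15 held GCGTG and 17 held AGGTCA. Per promoter, that was 6.33%, 20.3% and 22.8% of their 79 promoters, against 16.6%, 28.2% and 14% of all 32851 promoters. A match is a description of letters and shows no binding. Cyp4a14, Cyp4a10, Cyp24a1 and Cyp2c23 have no entry.

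The vitamin D enzymes had the highest median of any role group with more than 1 gene, 0.35 over 4 genes, but 0 passed the threshold. At an unadjusted p under 0.05, 1 of the 4 was higher (25%, against 8.67% of all rows). Cyp27b1, which makes the active hormone in the proximal tubule, had 7.98, 6.95 and 6.58 on the knockout arrays and 6.75, 6.63 and 6.25 on the wild-type arrays. Knockout replicate 1 stood far above the rest, and knockout replicate 3 fell within the wild-type range (difference 0.63, SE 0.338, adjusted p = 0.401). The difference was 0.22 without knockout replicate 1 and 0.93 without knockout replicate 3. Cyp24a1, which inactivates the hormone and is induced by it, had 9.98, 9.58 and 9.74 on the knockout arrays and 8.90, 9.63 and 8.97 on the wild-type arrays. Wild-type replicate 2 was inside the knockout range. The difference was 0.60 (SE 0.204, adjusted p = 0.198), and without wild-type replicate 2 it was 0.83 with an adjusted p of 0.0459. The liver-type activating enzymes showed little: Cyp2r1 differed by 0.094 and Cyp27a1, which also acts in bile acid synthesis, by -0.049 (95% intervals -0.21 to 0.40 and -0.21 to 0.11).

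Of 11 genes of vitamin D response and mineral handling, 1 rose (9.09%, against 2.24% of all rows) and 0 fell (0.524% of all rows fell). The 1 that rose was Trpv5, the calcium channel of the distal tubule and a known vitamin D target. Trpv5 had 8.13, 8.0 and 8.26 on the knockout arrays and 7.45, 7.26 and 7.38 on the wild-type arrays, a rise of 0.77 (SE 0.095, adjusted p = 0.00971). Calb1, the calcium-binding protein of the same cells, had a difference of 0.34 with no overlap (adjusted p = 0.107), and the vitamin D receptor gene Vdr differed by -0.0043.

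The enzymes of sterol, steroid and retinoid metabolism differed little between genotypes, with 0 of 13 members past the threshold and 0 at an unadjusted p under 0.05. Cyp7b1, an oxysterol hydroxylase that is abundant in kidney, had 9.06, 9.83 and 9.75 on the knockout arrays and 9.56, 9.50 and 9.55 on the wild-type arrays. Its means were nearly equal (difference 0.013), while the knockout SD was 0.42 and the wild-type SD 0.035, since knockout replicate 1 was below and the other knockout arrays above all wild-type arrays. The bile acid enzymes Cyp7a1 and Cyp8b1 differed by -0.11 and -0.13. Cyp51, the sterol demethylase of cholesterol synthesis, whose symbol is outside the rule, differed by -0.13 (95% interval -0.33 to 0.069).

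The steroid hormone enzymes Cyp11a1 (cholesterol side-chain cleavage) and Cyp11b1 (the last step to corticosterone) are made in the adrenal gland, which borders the kidney. They differed by -0.20 and -0.31 with overlap, and 0 of 7 adrenal markers passed (1 at an unadjusted p under 0.05). The retinoic acid hydroxylases Cyp26b1 and Cyp26a1 differed by -0.10 (95% interval -0.75 to 0.55) and 0.086. Cyp20a1, a member with no settled substrate, had 7.60, 7.47 and 7.47 on the knockout arrays and 7.46, 7.35 and 7.40 on the wild-type arrays. The groups were barely apart, and the difference was 0.11 (adjusted p = 0.522).

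The partners and regulators of P450 enzymes also showed no call. Of 10 genes of electron transfer and haem, 0 passed. At an unadjusted p under 0.05, 1 was higher and 1 lower (10% each, beside 8.67% and 8.38% of all rows). Hmox1, which breaks haem down, had 8.07, 8.19 and 8.06 on the knockout arrays and 7.28, 7.73 and 7.56 on the wild-type arrays. It was higher throughout, by 0.59 with an adjusted p of 0.0556. Cyb5a, the cytochrome that can hand electrons to P450 enzymes, had 10.80, 10.89 and 10.95 on the knockout arrays and 11.27, 11.22 and 11.17 on the wild-type arrays, lower throughout by -0.34 (adjusted p = 0.068).

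Of 17 receptor and regulator genes, 0 passed. At an unadjusted p under 0.05, 1 was higher and 2 lower (5.88% and 11.8%, beside 8.67% and 8.38% of all rows). Ppara, whose product activates Cyp4a14 and Cyp4a10, had 7.96, 7.77 and 7.79 on the knockout arrays and 8.12, 8.10 and 8.23 on the wild-type arrays. It was lower on each knockout array, with a difference of -0.31 and an adjusted p of 0.12. PPAR-alpha activity was not measured, and its part in the Cyp4a14 difference was not tested. Nr1i3, which encodes CAR, the activator of Cyp2b10, differed by -0.20 with overlap (adjusted p = 0.46). Nr1i2, which encodes the drug receptor PXR, had 6.56 on knockout replicate 1 and 5.19 and 5.20 on the other knockout arrays, against 5.14, 5.21 and 5.27 on the wild-type arrays, so that its difference of 0.44 came from a single array. Of 28 genes of conjugation and other detoxification enzymes, which act after P450 oxidation, 0 passed. At an unadjusted p under 0.05, 2 were higher and 4 lower (7.14% and 14.3%, beside 8.67% and 8.38% of all rows). The largest differences there were -0.91 for the glucuronosyltransferase Ugt2b37 (adjusted p = 0.0797) and -0.80 for the acetyltransferase Nat8 (adjusted p = 0.107), both without overlap.

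Over the 31 members above the array median on all 6 arrays, the SD was larger among the knockout arrays in 19 and among the wild-type arrays in 12. The knockout SD was thus the larger in 61.3% of them, beside 57% of all rows above the median. The largest knockout SDs were those of Cyp27b1 (0.73), Cyp4a14 (0.65), Cyp2d9 (0.59), Cyp2j13 (0.5) and Cyp7b1 (0.42), against wild-type SDs of 0.26, 0.16, 0.28, 0.062 and 0.035. These 5 were picked for their knockout SD. Knockout replicate 1 held an end of the knockout range in each of these 5. It was the highest for Cyp27b1 and Cyp4a14 and the lowest for Cyp2d9, Cyp2j13, Cyp7b1 and Cyp4a12a. Across the 31 members it was the highest or lowest of the knockout arrays in 87.1%, beside 75.6% of all rows above the median. The excess was not particular to it: knockout replicate 2 was so in 74.2%, beside 63.2% of those rows. Knockout replicate 3 was so in 38.7%, beside 61.1%. Knockout replicate 1 had the highest adipocyte markers, the lowest proximal tubule mean and the lowest array weight, and the part of these in the spread was not tested.

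**Figure D4:**
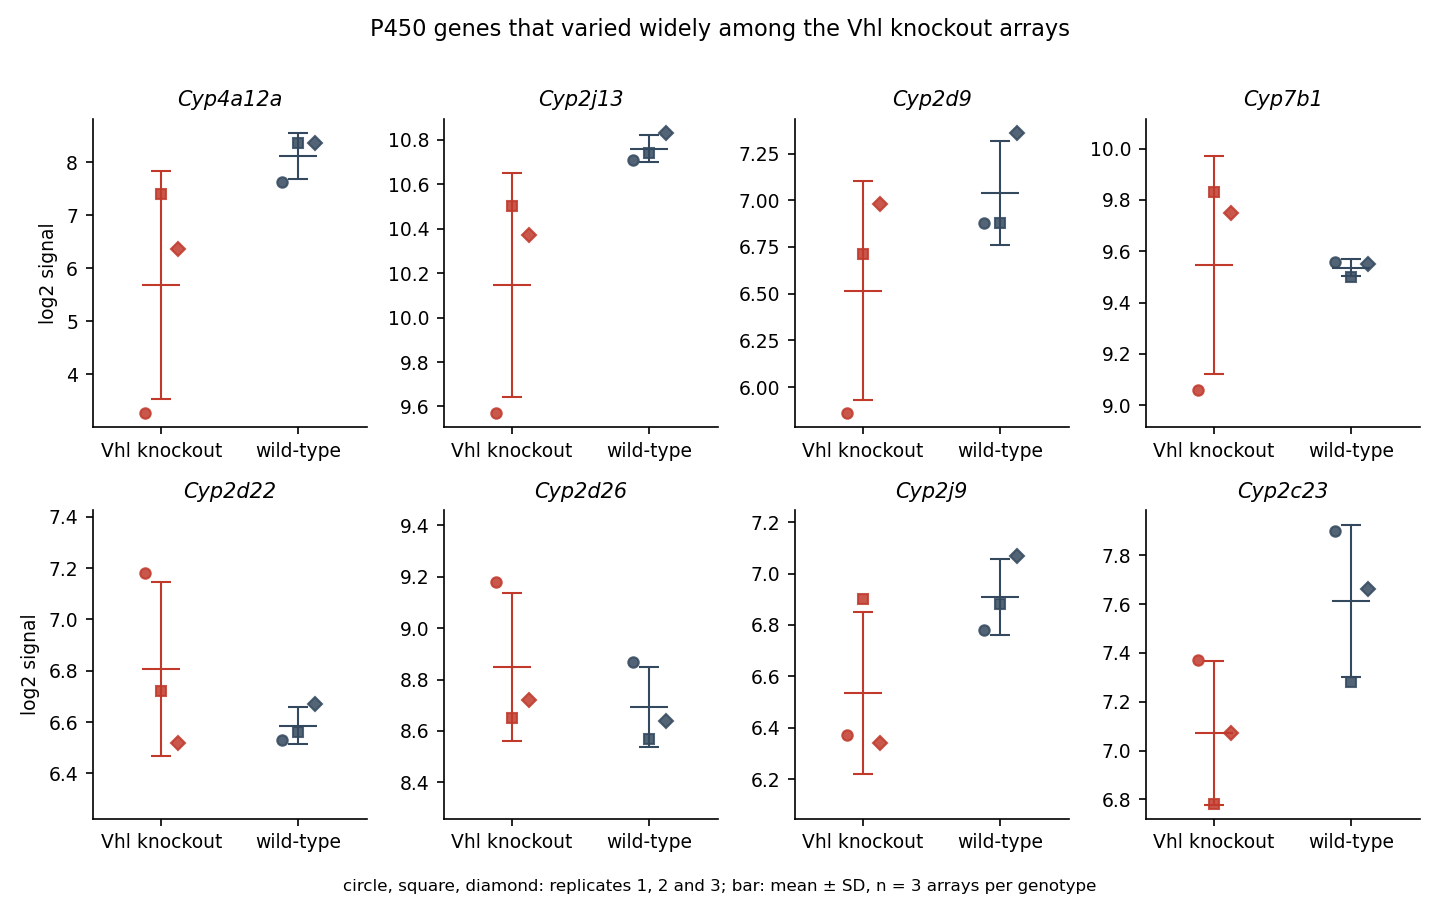
Log2 signal (vertical axis) of 8 P450 genes with a wide spread on the Vhl knockout arrays (red, left), beside the wild-type arrays (dark, right). Symbols mark replicates 1, 2 and 3 and bars the mean ± SD of 3 arrays. Knockout replicate 1 is the lowest array for Cyp4a12a (3.27), Cyp2j13 (9.57), Cyp2d9 (5.86) and Cyp7b1 (9.06) and the highest for Cyp2d22 (7.18) and Cyp2d26 (9.18). For Cyp2j9 the lowest array is knockout replicate 3 (6.34). Cyp2c23 has an SD of 0.29 on the knockout arrays and 0.31 on the wild-type arrays.

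Many P450 genes lie in arrays of close copies, and the members of such a cluster often differed in size. In the Cyp2a, Cyp2c, Cyp2d, Cyp3a, Cyp4a and Cyp4f clusters they also differed in direction. Only genes that fit the symbol rule were placed in order, so other genes can lie between them. Cyp4a12a (-2.44), Cyp4a12b (-0.23) and Cyp4a30b (-0.42) were not placed. In the Cyp4a cluster on chromosome 4, the placed genes ran Cyp4a29 (-0.038), Cyp4a14 (1.64), Cyp4a10 (0.35), Cyp4a31 (0.087) and Cyp4a32 (-0.65). In the Cyp2b cluster on chromosome 7, Cyp2b10 (-1.02) stood at the end, next to Cyp2b13 (-0.17). In the Cyp2j cluster on chromosome 4 the differences all ran lower, with Cyp2j13 at the end and Cyp2j9 (-0.37) near the other. The Cyp2d cluster on chromosome 15 was mixed, with Cyp2d9 (-0.52) next to Cyp2d12 (-0.30) and Cyp2d40 (0.28) beyond them. Differences between the genes of a cluster were not tested against each other.

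**Figure D5:**
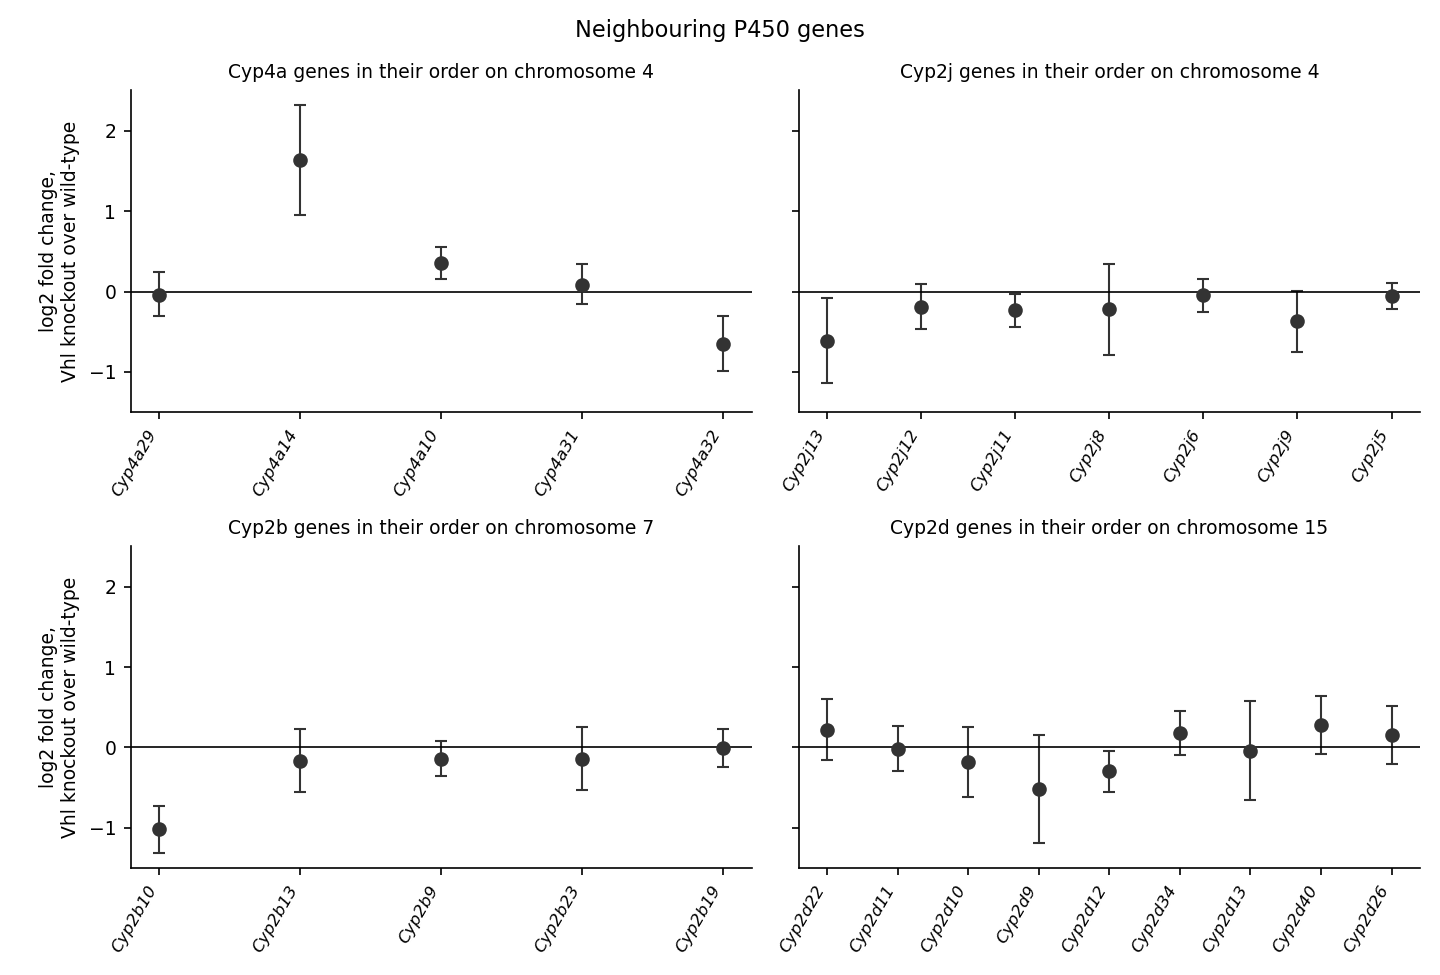
Log2 fold change, Vhl knockout over wild-type (vertical axis), of P450 genes in 4 clusters, in their order on the chromosome (horizontal axis, not to scale). Only genes that fit the symbol rule are shown, so other genes can lie between them. Points are limma estimates from 3 arrays per genotype and lines their 95% intervals. Cyp4a14 (1.64) and Cyp2b10 (-1.02) stand away from the other genes shown in their clusters, and all 7 Cyp2j estimates are below 0.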

How the data were processed

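Whole-kidney RNA was read on 6 Affymetrix arrays, 3 per genotype, and groups were taken from the sample titles. The authors deposited RMA values, which are log2 signals, per the labels, with 1 value per Entrez Gene row. Neither the RMA version nor the genome build behind the array annotation is given in the sources used here. A second deposited table held equal log2 values (largest difference 0) and the authors' own comparison (a moderated statistic, p-values and q-values), which was not used. No value column (0) was without a sample.

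R 4.3.3 with limma 3.58.1 fitted a linear model to each of the 25206 rows, with genotype alone as a term and moderated variances (3.27 prior degrees of freedom). The Benjamini-Hochberg adjustment ran over the whole table, and adjusted p-values under 0.05 counted as passed. The study's methods give no test for the arrays. Symbols came by Entrez ID from a RefSeq table of GRCm38.p6 (23185 rows matched, 2021 had no symbol here). No filter on dim rows was applied, and the fit was tested on simulated data. The number of arrays limits the precision.

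The members, gene lists and tests were chosen with earlier results of these data known. Genes were named if they passed the threshold, had the 2 largest differences of a role group, or were known for kidney roles; of other lists, those past the threshold or, where fewer than 2 passed, the 2 with the largest difference. Cyp2c44 was found under its current symbol, Cyp2c23. Other genes were named after their values were seen. Alternatives were quantile normalization, a filter that dropped rows exceeding the array median on fewer than 3 arrays, a trended and robust variance, array weights, a replicate block, a plain fit without shared variance and the omission of each array. Fits without knockout replicates 1 and 3, and with adipocyte or proximal tubule genes as a covariate, were chosen after seeing the data. Promoters came from RefSeq; the bases after the start site were left out. Python 3.11.15 (pandas 2.3.3, scipy 1.17.1) made the tables.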

Additional observations from a re-analysis of the deposited data

How the results depend on the processing

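Among all P450 genes, 1 passed as higher and 1 as lower, and quantile normalization and array weights gave the same counts. As higher, 4 passed with dim rows left out and 4 with the trended and robust variance, against 0 with the plain fit, 0 without knockout replicates 1 and 3, 0 with adipocyte genes and 0 with proximal tubule genes as a covariate. Leaving out each array in turn gave 0 to 1 higher and 1 to 2 lower. Of all rows, 0.972% to 1.62% passed in these fits, against 2.77% with all arrays. As higher, 0 members passed without wild-type replicate 1 or 3 or knockout replicate 2, and the 1 without wild-type replicate 2 was Cyp24a1. The 2 lower without knockout replicate 2 were Cyp2b10 and Cyp4a32. As lower, 0 passed with dim rows left out, which dropped Cyp2b10 from the test, 0 with the plain fit and 0 without knockout replicates 1 and 3. The cause of the other changes was not tested.

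The sample titles give replicate numbers and do not say whether equal numbers pair the samples. Correlations of same-numbered deviations were 0.036, 0.0731 and -0.0996, and those of the other pairs ran from -0.102 to 0.0663. With 3 arrays per genotype they gave no sign of a pairing and cannot exclude one. With a replicate block, 0 P450 genes passed as higher and 1 as lower, and over all rows 246 rose and 24 fell, against 565 and 132 without it; Cyp4a14 then had an adjusted p of 0.064. Over all rows, 839 rose and 262 fell with dim rows left out, 826 and 268 with the trended and robust variance, 24 and 2 with the plain fit, 8 and 0 without knockout replicates 1 and 3, 147 and 16 with adipocyte genes and 114 and 6 with proximal tubule genes as a covariate.

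The adjusted p of Cyp4a14 was 0.21 with the plain fit, 0.0783 without knockout replicates 1 and 3 (difference 1.47), 0.195 with adipocyte genes (1.32) and 0.168 with proximal tubule genes (1.09), and that of Cyp2b10 was 0.112 with the plain fit. Directions that turned belonged to genes not past the threshold. Over the omission of single arrays Cyp26b1 ranged from -0.28 to 0.18 (0.18 without wild-type replicate 2, 0.11 without knockout replicate 2), and Cyp7b1 from -0.13 to 0.26 (-0.0072 without wild-type replicate 2, -0.13 and -0.089 without knockout replicates 2 and 3). With proximal tubule genes as a covariate the differences were -0.012 for Cyp27b1, 0.02 for Cyp2e1, 0.049 for Cyp7a1, 0.0062 for Cyp8b1 and 0.025 for Cyp4a12b. Cyp2e1 was at 0.041 and Cyp4a12b at 0.21 with adipocyte genes, and at 0.05 and 0.31 without knockout replicates 1 and 3. Cyp4a12a was -0.72 both without those arrays and with adipocyte genes, and -0.52 with proximal tubule genes. The arrays carry no detection call, so for the 31 dim members a missing difference may be a limit of the signal over background.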
